A study of Arabidopsis thaliana with 12 samples.

Results

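The effect of the mutant line med25-1 on transcript levels under low oxygen was measured in rosettes of Arabidopsis thaliana. All 3 wild-type and all 3 med25-1 libraries from plants exposed to 1% oxygen for 3 h (hypoxia) were compared across every gene, which makes 6 of the 12 libraries of the study. Of 33208 features in the deposited table, 18212 passed a filter on low counts and were tested. Plants of both genotypes were 3 weeks old and had been grown on plates with sucrose under long days. They were sampled as whole rosettes in 3 biological replicates. The other 6 libraries, from untreated wild type and med25-1, entered the same fit and serve as the control comparison. The p-values therefore rest on a spread between replicates that was estimated over all 12 libraries, not over the 6 compared alone. Neither the ecotype nor the lesion of med25-1 is described in the sources used here, and the line is a single mutant allele.

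MED25 belongs to Mediator, which passes signals from DNA-bound transcription factors to RNA polymerase II. In Arabidopsis it binds MYC factors of jasmonate signalling and ERF factors such as ORA59, and it is also known as PFT1, a regulator of flowering time. Jasmonate and ethylene together induce plant defensins, whereas salicylate induces PR genes, and both branches restrain each other. Under hypoxia, group VII ERF factors escape the oxygen-dependent N-degron pathway, in which plant cysteine oxidases (PCO) mark them for degradation, and they switch on a core set of genes for fermentation, sugar use and feedback control.

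Genes are called at an adjusted p under 0.05 (quasi-likelihood test of edgeR, Benjamini-Hochberg over all tested genes). Levels are read counts scaled to library size (CPM), log2 fold changes are med25-1 minus wild type with a standard error (SE), and values per library are given in the order of replicates 1 to 3. A call is said to hold where it stayed with each of the 12 libraries left out in turn. The promoters of 2 jasmonate-branch defence genes called lower are printed below, with 250 bases upstream taken from the TAIR10.1 genome. Each reads 5′ to 3′ towards the gene, with a GCC box (GCCGCC, bound by ERF factors) or a G-box (CACGTG, bound by MYC factors) in capitals.
ORA59, chr1:1882657-1882906, plus strand: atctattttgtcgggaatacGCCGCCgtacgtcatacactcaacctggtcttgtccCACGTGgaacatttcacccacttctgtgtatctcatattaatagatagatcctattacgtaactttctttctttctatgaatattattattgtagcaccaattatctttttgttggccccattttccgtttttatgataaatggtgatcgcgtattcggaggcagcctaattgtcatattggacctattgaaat
PDF1.2A, chr5:17907639-17907888, minus strand: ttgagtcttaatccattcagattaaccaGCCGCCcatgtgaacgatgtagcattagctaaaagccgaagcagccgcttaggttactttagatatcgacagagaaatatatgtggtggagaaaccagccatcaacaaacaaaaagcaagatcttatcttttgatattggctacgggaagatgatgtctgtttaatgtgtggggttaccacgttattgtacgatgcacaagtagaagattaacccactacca
The ORA59 window holds a GCC box that begins 230 bases and a G-box that begins 194 bases before the gene start. The PDF1.2A window holds a GCC box that begins 222 bases before it. Searched on both strands over all tested genes with a window, the GCC box stood in 2.03% and the G-box in 7.38% of the promoters. The shares were 1.47% and 7.15% among genes called higher and 2.23% and 8.29% among genes called lower.

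The 6 libraries held 7170796 to 18310640 gene reads. The shallowest, med25-1 library 3, stood apart from the others of its group. The share of reads in the top 20 genes was 8.97% there and 14.0% to 15.9% in the other hypoxia libraries. The summed level of 5 leaf markers (RBCS1A, LHCB3, RCA, LHCB5 and LHCA1) was 17595 CPM in it, 30484 and 31506 CPM in the other med25-1 libraries and 37043 to 38857 CPM in wild type. None of the 5 was called by edgeR (DESeq2 called 2, and edgeR 3 without med25-1 library 2), and in bulk tissue fewer cells of a type and less RNA per cell cannot be told apart. Among genes called higher, 1943 of 2181 (89.1%) had their highest med25-1 value in this library. Among genes called lower, 1359 of 1752 (77.6%) had their lowest value there. The same shares over all tested genes were not counted, so these 2 shares do not set the called genes apart from the rest. Each leaf marker reached at least 2768 CPM in every hypoxia library, as the label of rosettes requires. Of 6 root markers, only PYK10 passed the filter, at 1.3, 0.166 and 1.76 CPM in wild type, against 0.138, 0 and 0 CPM in med25-1, and EXPA7 and RHD6 had no read. Of 8 floral markers, only PI passed, at 7.31, 5.22 and 4.45 CPM against 1.52, 2.65 and 1.05 CPM, while AP1 and LFY had no read. AG, which did not pass, went the other way, at 0.0724, 0.166 and 0.212 CPM against 0.413, 0.319 and 0.527 CPM (6 and 16 reads). SEP2 did not pass either, and it reached 2.4 CPM in wild-type library 3 and at most 0.264 CPM in any other hypoxia library. PYK10 and PI were called lower (edgeR adjusted p = 0.0455 and 0.00445). The call of PYK10 was lost in 7 of the 12 fits with a library left out, and the part of these tissues in other results was not tested. The 4 seed markers summed to at most 0.138 CPM in any hypoxia library.

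The targeted gene was examined first. MED25 (AT1G25540), on chromosome 1 from 8969065 to 8974815 on the minus strand of TAIR10, stood at 26.2, 38 and 33.8 CPM in wild type, against 14.2, 15.3 and 21.5 CPM in med25-1. The genotypes did not overlap, and the log2 fold change was -0.96 ± 0.20 (SE), a fall that passed the test (edgeR adjusted p = 0.0066) and held. Reads that fell outside the annotated exons made up 1.38%, 1.09% and 1.25% of MED25 reads in wild type and 8.25%, 12.1% and 7.36% in med25-1. Every med25-1 share lay above every wild-type share, and the exact two-sided permutation p was 0.1, the smallest that 3 libraries against 3 allow. Of the 34 tested Mediator subunits, MED25 was the only call, and their median log2 fold change was -0.01. Without med25-1 library 1, 3 subunits were called higher and 4 lower.

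In all, 3933 genes (21.6% of those tested) were called. Of these, 2181 (12%) were higher and 1752 (9.62%) lower in med25-1, and the median log2 fold change over all tested genes was -0.05. At a change of at least 8-fold, 437 genes were higher and 72 lower. Of the called genes, 3802 (96.7%) had no overlap between the libraries of the genotypes, against 6633 (36.4%) of all tested genes. Calls held for 1197 of the higher and 664 of the lower genes. The count fell to 2214 without wild-type library 3, to 2606 without wild-type library 1 and to 2710 without med25-1 library 3. It rose to 5124 without med25-1 library 1. With only the 6 hypoxia libraries in the fit it was 1819, of which 1275 were higher and 544 lower.

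**Figure D1:**
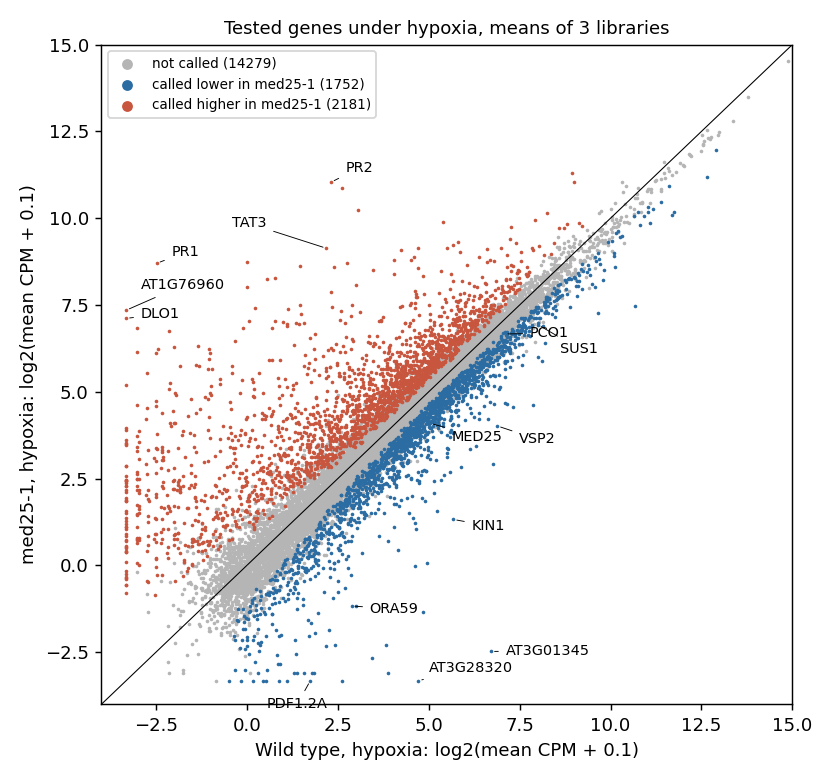
Mean level of each tested gene under hypoxia in wild type (x axis) and med25-1 (y axis), as log2 of mean CPM plus 0.1 over 3 libraries a genotype; red and blue points are the 2181 genes called higher and the 1752 called lower, and the line marks equal levels. PR1, PR2, TAT3, DLO1 and AT1G76960 lie far above the line, and ORA59, PDF1.2A, KIN1, AT3G01345 and AT3G28320 far below it.

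Salicylate genes had the highest share of called members among the lists with at least 5 tested genes, and they were higher in med25-1. Of 34 tested genes of salicylate synthesis, signalling and response, 31 were called higher and none lower, with a median log2 fold change of 3.86. The calls of 29 held, and between 29 and 32 members were called with any single library left out. All 31 reached their highest level in med25-1 library 3, and without that library 31 were called, with a median of 3.13.

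PR1, a secreted marker protein of the salicylate response, stood at 0.0724, 0.166 and 0 CPM in wild type, against 67.3, 202 and 979 CPM in med25-1. That is 3 reads in all of wild type, for a ratio of 3982 (95% counting interval 1362 to 19313, edgeR adjusted p = 5.0e-04). The ratio was 1916 without med25-1 library 3, 8348 without wild-type library 2 and 2573 without wild-type library 3. PR2, a glucanase that attacks fungal walls, stood at 3.76, 3.15 and 7.69 CPM in wild type, against 1101, 964 and 4235 CPM in med25-1. The lowest mutant library lay above the highest wild-type library, and the log2 fold change was 8.74 ± 0.88 (edgeR adjusted p = 9.3e-05), or 7.72 without med25-1 library 3. PR5, a thaumatin-like protein, was higher as well, at 308, 271 and 1222 CPM against 59.6, 46.5 and 45.2 CPM, with a log2 fold change of 2.52 without med25-1 library 3.

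Genes for making salicylate were called higher. ICS1, the isochorismate synthase of the main route, stood at 8.11, 14.2 and 10.7 CPM in wild type, against 181, 192 and 727 CPM in med25-1 (log2 fold change 5.06 ± 0.73, edgeR adjusted p = 8.0e-04, and 4.09 without med25-1 library 3). PBS3, which conjugates isochorismate with glutamate, and EDS5, which exports isochorismate from the plastid, were higher by 7.58 ± 0.93 and 4.61 ± 0.75 on the log2 scale, or 6.50 and 3.70 without med25-1 library 3. The factors SARD1 and CBP60g, which activate ICS1, were higher by 5.08 ± 0.57 and 2.95 ± 0.34, or 4.31 and 2.31 without med25-1 library 3. Enzymes that hydroxylate and so inactivate salicylate were higher too. DMR6 stood at 28, 27.5 and 29.8 CPM in wild type, against 269, 181 and 514 CPM in med25-1. DLO1, on chromosome 4 from 6491017 to 6492578, had no read in wild type and stood at 35.9, 64.6 and 315 CPM in med25-1, at least 1346-fold higher against a floor of 3 counts over the group. That bound was 695 without med25-1 library 3, and 881 and 869 without wild-type library 1 and 3.

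The pathway to N-hydroxypipecolic acid, a mobile signal of systemic resistance, followed the same direction. ALD1, its first enzyme, had 1 read in wild type and stood at 22.7, 66.8 and 256 CPM in med25-1, a ratio of 3454 (95% counting interval 619 to 136455). Leaving out wild-type library 1 left no wild-type read and a bound of at least 754, and leaving out wild-type library 3 or med25-1 library 3 gave 2232 and 1905. FMO1, the last enzyme, had 1 wild-type read and stood at 15.8, 42.6 and 153 CPM. Its ratio of 2143 (95% counting interval 384 to 84685) became at least 462 without wild-type library 3, and 1404 and 1240 without wild-type library 1 and med25-1 library 3. SARD4, the reductase between them, stood at 8.25, 5.72 and 5.43 CPM against 39.9, 52.9 and 194 CPM, with a log2 fold change of 2.84 without med25-1 library 3. No med25-1 library of these 3 genes overlapped a wild-type library.

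Receptors and regulators were called higher as well. NPR1, a salicylate receptor and coactivator, stood at 57.1, 63.6 and 63 CPM in wild type, against 84.9, 92.9 and 138 CPM in med25-1, a log2 fold change of 0.78 ± 0.20 (edgeR adjusted p = 0.0156, and 0.055 without wild-type library 1). NPR3 and NPR4, receptors that act as corepressors, were higher by 1.86 ± 0.35 and 1.45 ± 0.25, and NPR3 by 1.26 without med25-1 library 3. The immune regulators EDS1 and PAD4, which work as a pair, were higher by 3.44 ± 0.46 and 4.30 ± 0.53, and WRKY70, a salicylate-responsive factor, by 4.44 ± 0.51. These 3 values were 2.81, 3.52 and 3.80 without med25-1 library 3. Of the remaining 3 tested members, WRKY40 had a log2 fold change of 1.33 ± 0.45, FRK1 of 1.59 ± 0.66 and WRKY53 of 0.04 ± 0.30 (edgeR adjusted p = 0.0525, 0.105 and 0.936). The W-box, bound by WRKY factors and searched as TTGACC or TTGACT after the values were seen, stood in 37.1% of the promoters of genes called higher, 23.1% of those called lower and 28.1% of all tested. On the salicylate list it stood in 8 of 34 promoters (23.5%).

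**Figure D2:**
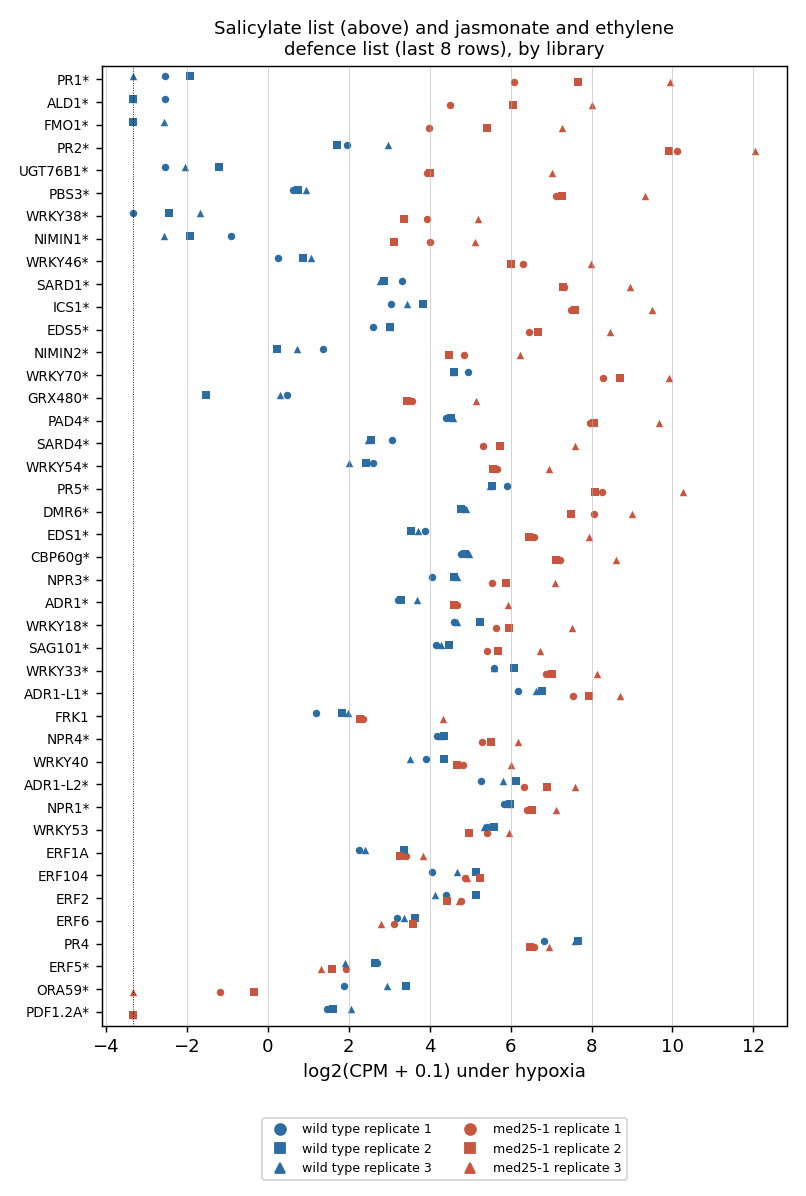
Level of each tested member of the salicylate list and, in the last 8 rows, of the jasmonate and ethylene defence list under hypoxia, as log2 of CPM plus 0.1; each marker is 1 library, blue for wild type and red for med25-1, an asterisk marks a called gene and the dotted line marks 0 CPM. Red markers lie to the right for the 31 called salicylate genes and to the left for ERF5, ORA59 and PDF1.2A.

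Jasmonate genes showed no single direction. In the defence branch shared with ethylene, 8 of 15 listed genes passed the filter, 3 were called lower and none higher, with a median of -0.46. ORA59, the ERF factor that integrates both hormones, stood at 3.62, 10.5 and 7.62 CPM in wild type, against 0.344, 0.69 and 0 CPM in med25-1. The groups did not overlap, and the log2 fold change of -4.10 ± 0.65 (edgeR adjusted p = 0.00142) was -5.0 without med25-1 library 2. PDF1.2A, a defensin and the standard readout of this branch, stood at 2.68, 2.98 and 4.09 CPM in wild type, with no read in med25-1, at least 44.6-fold lower (edgeR adjusted p = 6.1e-04). That bound was 28.8 without med25-1 library 1 and 24.1 without med25-1 library 2. The GCC box stood in 2 of the 8 promoters of this list, those shown above, and its part in any change was not tested. ERF5, without a GCC box in its window, was the third gene called lower, at -0.84 ± 0.26. Its call was lost in 8 of the 12 fits with a library left out and with the replicate block (edgeR adjusted p = 0.0583). ERF1A stood at 0.75 ± 0.34, ERF2 at 0.03 ± 0.29 and PR4 at -0.73 ± 0.25, none of them called. The genes that passed did so partly on their wild-type level, so their count is a description only. It was 2 higher and 2 lower without wild-type library 2, and 1 higher and 7 lower with no filter on low counts.

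Among genes of the MYC branch, 2 of 13 tested were called higher and 3 lower. VSP2, a vegetative storage protein that MYC factors induce, stood at 122, 79.9 and 152 CPM in wild type, against 22.6, 20 and 5.67 CPM in med25-1 (log2 fold change -2.84 ± 0.48, edgeR adjusted p = 0.00202). TAT3, a tyrosine aminotransferase gene used as a jasmonate marker, went the other way, at 4.78, 2.32 and 6.28 CPM against 264, 339 and 1081 CPM (6.96 ± 0.78, edgeR adjusted p = 1.8e-04, and 6.06 without med25-1 library 3). Both calls held and neither gene's groups overlapped. The calls of MYC4 (0.62 ± 0.17), a MYC factor itself, CLH1 (-1.51 ± 0.49), a chlorophyllase, and THI2.1 (-2.09 ± 0.67, or -2.69 without med25-1 library 2), a thionin, did not hold, lost in 3, 9 and 8 of the 12 fits.

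Of the genes that make or break down jasmonate, LOX4, a lipoxygenase, and AOC3, an allene oxide cyclase, were called higher and CYP94B3 lower, out of 17 tested. Their called share was 17.6%, beside 21.6% over all tested genes. The list counted 4 higher without med25-1 library 1, and 3 lower without med25-1 control library 2 or 3 or with only the hypoxia libraries in the fit. CYP94B3, which oxidizes the active hormone jasmonoyl-isoleucine, stood at 5.21, 4.39 and 8.33 CPM in wild type, with no read in med25-1, at least 82.8-fold lower (edgeR adjusted p = 0.00234). The bound was 53.4 without med25-1 library 1 and 44.7 without med25-1 library 2. LOX4 stood at 5, 8.79 and 6.56 CPM against 17.6, 21.4 and 77.1 CPM, a log2 fold change of 2.49 ± 0.55 that was 1.53 without med25-1 library 3. AOC3 was higher by 2.23 ± 0.42. The abundant LOX2 and AOS had log2 fold changes of -0.21 ± 0.57 and -0.39 ± 0.32 and were not called. Of 12 JAZ repressors, only JAZ2 was called, at -0.84 ± 0.25, and its call was lost in 6 of the 12 fits. JAZ1 (0.74) was called higher with the replicate block (edgeR adjusted p = 0.0443).

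Some of the core hypoxia genes had lower levels in med25-1 under hypoxia. Of 55 tested core hypoxia genes, 17 were called lower and 3 higher in med25-1, with a median log2 fold change of -0.42. The calls of 7 of the lower and 2 of the higher genes held. Lower calls numbered 10 without wild-type library 2, 8 without wild-type library 3, 11 without med25-1 library 3 and 8 with only the hypoxia libraries in the fit, against 20 with DESeq2 and 22 with limma voom.

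PCO2, a cysteine oxidase that acts as an oxygen sensor in the N-degron pathway, stood at 47.6, 51.3 and 47.1 CPM in wild type, against 25, 18.3 and 13.3 CPM in med25-1. All mutant libraries lay below all wild-type libraries, with a log2 fold change of -1.36 ± 0.21 (edgeR adjusted p = 0.00137). Lower calls that held were also made for AT4G39675 (-1.34 ± 0.20), ETR2, an ethylene receptor (-1.14 ± 0.18), CYP707A3, an abscisic acid catabolism enzyme (-1.21 ± 0.21), ACHT5, a plastid thioredoxin (-1.43 ± 0.26), AT5G65207 (-0.87 ± 0.20) and the phosphofructokinase PFK6 (-0.71 ± 0.17). PFK6 was lost with only the hypoxia libraries in the fit. The 3 genes called higher were ARD3, of methionine salvage, AT4G17670 and the NAC factor ANAC102. ARD3 stood at 2.32, 0.0829 and 0.282 CPM in wild type, against 151, 201 and 929 CPM in med25-1 (8.85 ± 1.41, or 11.07 without wild-type library 1 and 7.57 without med25-1 library 3). ANAC102 (1.21 ± 0.38) lost its call in 7 of the 12 fits and fell to 0.60 without med25-1 library 3.

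Several genes widely used as readouts of hypoxia were not called. ADH1, the alcohol dehydrogenase of fermentation, stood at 127, 245 and 154 CPM in wild type, against 167, 150.4 and 104 CPM in med25-1. The groups overlapped, and the log2 fold change was -0.32 ± 0.28 (edgeR adjusted p = 0.444). An antisense neighbour, AT1G77122, overlaps ADH1, and whether reads were counted by strand is not stated in the labels. LBD41, a lateral organ boundaries factor, and HRA1, which restrains RAP2.12, had log2 fold changes of -0.24 ± 0.20 and -0.49 ± 0.28, not called, although HRA1 was called without med25-1 library 2 (-0.87, edgeR adjusted p = 0.0329). HB1, the phytoglobin that removes nitric oxide, stood at 414, 383 and 356 CPM in wild type, against 700.0, 519.6 and 497 CPM in med25-1, without overlap, and missed the threshold (0.57 ± 0.20, edgeR adjusted p = 0.0616). DESeq2 and limma voom called it (adjusted p = 0.0133 and 0.0132).

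The 17 tested genes of oxygen sensing hold the group VII ERF factors and the N-degron enzymes. Of these, 4 (23.5%, near the 21.6% over all tested genes) were called lower and none higher, or 2 lower without med25-1 library 3. Beside PCO2 these were RAP2.3, HRE2 and ACBP1. RAP2.3, a constitutively made group VII factor, stood at 189, 287 and 211 CPM in wild type, against 146, 119 and 96.7 CPM in med25-1 (-0.92 ± 0.25, edgeR adjusted p = 0.0212). The groups did not overlap, but the call was lost without wild-type library 2 (edgeR adjusted p = 0.0821) or med25-1 library 3. HRE2, a group VII factor induced by hypoxia, stood at 6.08, 5.14 and 8.12 CPM against 3.51, 2.81 and 1.71 CPM. Its log2 fold change of -1.23 ± 0.34 (edgeR adjusted p = 0.0223) lost its call without wild-type library 1 or 3 or med25-1 library 3, with an adjusted p of up to 0.103. ACBP1, the membrane protein that docks RAP2.12 in air, was lower by -0.52 ± 0.13. RAP2.12, RAP2.2 and HRE1 had log2 fold changes of -0.14 ± 0.13, -0.26 ± 0.23 and -0.48 ± 0.38 and were not called. PCO1 stood at 129, 143 and 134 CPM against 107, 106 and 91.5 CPM, without overlap, and missed the threshold (-0.41 ± 0.16, edgeR adjusted p = 0.0799). DESeq2 and limma voom called it (adjusted p = 0.0198 and 0.0386).

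Among 34 genes of sucrose breakdown, glycolysis and fermentation, 5 were called higher and 6 lower. The lower calls numbered 3 without wild-type library 2, and the higher calls 3 without wild-type library 1, wild-type library 3 or med25-1 library 3. PDC1 and PDC2, the pyruvate decarboxylases that start ethanol fermentation, were both called lower. PDC1 stood at 23.7, 67.1 and 30.2 CPM in wild type, against 20.9, 15.3 and 6.59 CPM in med25-1 (-1.47 ± 0.45, edgeR adjusted p = 0.036), and the call was lost without wild-type library 2 or 3, med25-1 library 2 or 3, or wild-type control library 3, with an adjusted p of up to 0.177. PDC2 stood at 180.5, 432 and 315 CPM against 131, 208 and 123 CPM, so that wild-type library 1 lay below med25-1 library 2, and its call (-1.0 ± 0.30, edgeR adjusted p = 0.0343) was lost in 5 of the 12 fits. SUS1, a sucrose synthase, stood at 162, 322 and 287 CPM against 78.8, 133 and 154 CPM. Its log2 fold change was -1.08 ± 0.34 (edgeR adjusted p = 0.0401), and the call was lost in 8 of the 12 fits. HXK2, a hexokinase (-0.75 ± 0.17), and GAD2, a glutamate decarboxylase (-0.89 ± 0.18), were lower with calls that held. PFK3, another phosphofructokinase, and GAPC1, a cytosolic glyceraldehyde phosphate dehydrogenase, were higher with calls that held. PFK3 stood at 27.8, 44 and 34.9 CPM in wild type, against 89.6, 97 and 199 CPM in med25-1 (1.85 ± 0.31). GAD1 had 3 reads in wild type and a ratio of 43.7 (95% counting interval 14.6 to 215), or 29.2 without med25-1 library 3. The higher calls of AlaAT2 (0.88 ± 0.25), an alanine aminotransferase, and PPDK (1.33 ± 0.42), which turns pyruvate to phosphoenolpyruvate, did not hold, and PPDK was at 0.51 without med25-1 library 3 and lost its call with the replicate block (edgeR adjusted p = 0.0577). With only the hypoxia libraries in the fit, 3 members were called higher and none lower.

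**Figure D3:**
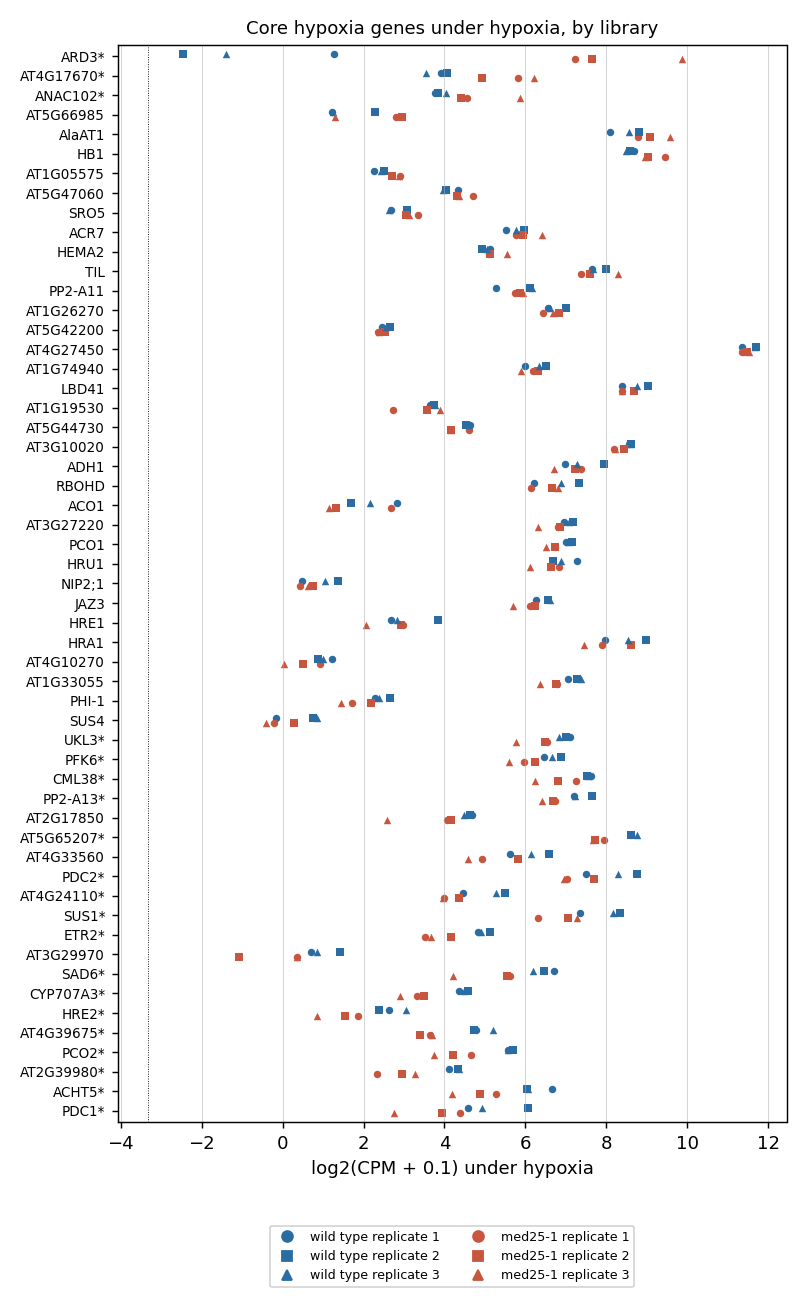
Level of each of the 55 tested core hypoxia genes under hypoxia, as log2 of CPM plus 0.1; each marker is 1 library, blue for wild type and red for med25-1, genes run from the highest to the lowest log2 fold change, and an asterisk marks a called gene. The genotypes lie close together for most genes, ARD3 at the top stands far to the right in med25-1, and PCO2 and ACHT5 near the bottom lie to the left.

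The 12 largest positive and 12 largest negative changes among well-counted genes were mostly genes with almost no reads in a genotype. AT1G76960, an uncharacterized gene on chromosome 1 from 28920317 to 28920976, had no read in wild type and stood at 106, 77.7 and 305 CPM in med25-1, at least 1733-fold higher, or 1135 and 1120 without wild-type library 1 and 3. F6'H1, which makes the precursor of the antimicrobial coumarin scopoletin, had no wild-type read and stood at 10.1, 17.6 and 81.1 CPM, and it overlaps AT3G13620 on the other strand. AT1G11280, an S-locus lectin kinase, AT3G05945, AT1G75945 and AT3G27990 had no wild-type read and stood between 8.57 and 20.7 CPM in every med25-1 library. AT3G27990 also overlaps AT3G27980 on the other strand. The zinc finger gene AT3G46080 and the glutamate receptor GLR2.5 complete the positive set beside PR1, ALD1, FMO1 and DLO1.

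On the negative side, AT3G28320, on chromosome 3 from 10581831 to 10582784, stood at 24.3, 29.7 and 24.4 CPM in wild type with no read in med25-1, at least 354-fold lower, or 229 and 191 without med25-1 library 1 and 2. AT3G01345 stood at 93.3, 119 and 102 CPM in wild type, against 0, 0.106 and 0.132 CPM in med25-1. That is 3 reads, for a ratio of 1421 in favour of wild type (95% counting interval 486 to 6895), or 917 and 2302 without med25-1 library 1 and 2. DR4, named drought-repressed 4, stood at 7.96, 16.2 and 17.9 CPM against 0.0689, 0.106 and 0.132 CPM. CYP94B3, described above, AT2G01422, AT1G12340, AT1G19565, AT5G66840 and AT1G80555 were in the set too. It also holds the hydrolases AT5G41900 and AT5G47330 and the lipid transfer protein LTP3. AT5G41900 stood at 34.7, 26.5 and 30.9 CPM in wild type, against 0.758, 1.27 and 0.791 CPM in med25-1 (-4.96 ± 0.25, edgeR adjusted p = 3.7e-07).

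Genes read in a single genotype lay on all 5 chromosomes. With a mean of at least 1 CPM and a read in every library of a genotype and no read in the other under hypoxia, 55 genes were found in med25-1 only and 8 in wild type only. The 55 fell on chromosomes 1 to 5 as 14, 4, 16, 11 and 10 genes, and 34 of them had no read in the wild-type control libraries either. Of the 63 genes, 18 started within 100 kb of another, among them the neighbours AT1G80970 and AT1G80980, LBD26 beside AT3G27990, and ABCB15, read in med25-1 only, beside AT3G28320, read in wild type only. The same count was not made for other sets of genes, so it does not show whether these 63 lie closer together than others. The share of tested genes called ran from 19.7% on chromosome 2 to 23.1% on chromosome 1, and within 1 Mb of MED25 it was 62 of 343 (18.1%).

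Abscisic acid, cold and osmotic stress genes moved in both directions, with 6 of 29 called higher and 5 lower. KIN1, a cold- and abscisic acid-induced gene, stood at 65.5, 42 and 45.5 CPM in wild type, against 2.07, 3.82 and 1.32 CPM in med25-1. The genotypes did not overlap, and the log2 fold change was -4.31 ± 0.55 (edgeR adjusted p = 3.9e-04). RD22, a dehydration-induced gene and a MYC target, stood at 822, 934 and 901 CPM against 305, 435 and 152 CPM (-1.57 ± 0.33, edgeR adjusted p = 0.00696). P5CS1, the rate-limiting enzyme of proline synthesis, stood at 174, 97.3 and 143 CPM against 46.7, 51.8 and 51.8 CPM (-1.46 ± 0.28, edgeR adjusted p = 0.00446). COR15A, which protects plastid membranes in the cold, was lower by -1.98 ± 0.50, and these calls held. RD29A (-1.17 ± 0.37) was the last of the lower genes, and its call was lost in 7 of the 12 fits. Of the higher genes, only ZAT12, a stress-induced zinc finger factor, held (1.80 ± 0.43, or 1.04 without med25-1 library 3), and the list counted 3 higher and 4 lower without med25-1 library 3 or wild-type library 2, and 2 higher and 4 lower without wild-type library 3.

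Heat shock genes were higher in the main, with 13 of 23 called higher and 2 lower and a median of 1.56. HSFB1, a heat shock factor that also acts in immunity, stood at 5.79, 7.05 and 9.53 CPM in wild type, against 49.6, 46.1 and 171 CPM in med25-1 (3.56 ± 0.48, edgeR adjusted p = 5.1e-04, and 2.68 without med25-1 library 3). ROF2, a co-chaperone, was higher by 4.34 ± 0.72, or 3.63 without med25-1 library 3, and MBF1C, a coactivator of the heat response, by 1.67 ± 0.29. The chaperone HSP90.1 stood at 4.2, 9.04 and 4.45 CPM against 79.2, 88.6 and 309 CPM, with a log2 fold change of 3.85 without med25-1 library 3. HSFA3 (-1.14 ± 0.25) and HSP18.2 (-1.85 ± 0.51) were called lower, and the call of HSP18.2 was lost without wild-type library 1 or 3 or med25-1 library 3. All 13 higher genes peaked in med25-1 library 3, and without it 12 were higher and 1 lower, with a median of 1.17.

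Genes of indole glucosinolates and of camalexin, the indole phytoalexin of Arabidopsis, were called higher in 7 of 16 cases and lower in 1, with a median of 1.28, and all 8 calls held. All 7 higher genes peaked in med25-1 library 3, and the median was 0.63 without it and 0.61 with limma voom. PAD3, the last enzyme of camalexin synthesis, stood at 1.16, 1.82 and 1.55 CPM in wild type, against 78.5, 33.4 and 233 CPM in med25-1 (6.24 ± 1.12, edgeR adjusted p = 0.00279, and 5.21 without med25-1 library 3). MYB51, the factor that activates the indole pathway, stood at 8.69, 22.5 and 13.4 CPM against 59.4, 53.6 and 121 CPM (2.39 ± 0.38). CYP83B1, an enzyme of the same pathway, was higher by 2.11 ± 0.34. IGMT1, a methyltransferase that modifies the end product, was the gene called lower (-1.22 ± 0.24). Of 18 aliphatic glucosinolate genes, SOT17, a sulfotransferase, was called higher (2.3 ± 0.38) and MAM3, MYB76 and UGT74C1 lower, none of these 3 with a call that held. The called share of the aliphatic list was 22.2%, near the 21.6% over all tested genes.

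Mitochondrial and oxidative stress genes counted 8 higher and 3 lower of 23, with a median of 0.56. The higher calls numbered 5 without wild-type library 1 or 2, and there was 1 lower call without wild-type library 2 or 3. The mitochondrial outer membrane protein OM66 stood at 2.17, 3.15 and 2.75 CPM in wild type, against 82.4, 81.7 and 287 CPM in med25-1 (5.8 ± 0.65, edgeR adjusted p = 1.9e-04, and 4.93 without med25-1 library 3). AOX1D, an alternative oxidase, had 2 of 3 wild-type libraries with a read and stood at 2.14, 4.14 and 23.3 CPM in med25-1. Its ratio was 139.9 (95% counting interval 38.4 to 1161), or 65.4 without med25-1 library 3 and 90.4 without wild-type library 3. The alternative dehydrogenases NDB2 (3.29 ± 0.53, or 2.37 without med25-1 library 3) and NDA2 (1.97 ± 0.33) were higher. UPOX1 (-1.83 ± 0.31), NDA1 (-0.72 ± 0.21) and the peroxisomal catalase CAT3 (-0.93 ± 0.23) were lower, and only the call of UPOX1 held.

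Among 19 ethylene genes, 5 were called higher and 4 lower, or 3 higher without wild-type library 1, wild-type library 3 or med25-1 library 3 and 2 lower without wild-type library 2. The enzymes that make the ethylene precursor split: ACS2, ACS6 and ACS7 were higher and ACS8 was lower. ACS8 stood at 25.3, 30.6 and 26 CPM in wild type, against 8.89, 4.99 and 3.95 CPM in med25-1 (-2.17 ± 0.32, edgeR adjusted p = 8.7e-04). ACS6 stood at 8.47, 6.47 and 6.35 CPM against 22.7, 14.5 and 50.6 CPM (2.02 ± 0.45, or 1.39 without med25-1 library 3). These calls and that of ETR2 held. The lower calls of EIL1 (-0.53 ± 0.15), a factor of the ethylene response, and EBF2 (-0.67 ± 0.17), which degrades such factors, and the higher calls of the receptor EIN4 (0.88 ± 0.24) and the oxidase ACO4 (0.70 ± 0.22) did not, and that of ACO4 was also lost with the replicate block (edgeR adjusted p = 0.0612).

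Part of the cell wall expansion genes were called lower. Of 24 tested expansins and xyloglucan endotransglucosylases (XTH), which loosen and remodel the wall, 9 were called lower and none higher, with a median of -1.06. EXPA10, a leaf expansin, stood at 40.5, 24.3 and 46.2 CPM in wild type, against 5.85, 12.2 and 6.19 CPM in med25-1 (-2.17 ± 0.30, edgeR adjusted p = 6.7e-04). XTH6 stood at 38.3, 27.7 and 34.6 CPM against 15.2, 10.2 and 3.43 CPM, and XTH4 was lower by -1.26 ± 0.30. In none of the 3 did the genotypes overlap. These 3 calls held, and without wild-type library 3 the list counted 5 lower. Of 12 auxin response genes (16.7% called, beside 21.6% over all tested genes), the AUX/IAA repressors IAA17 (-1.45 ± 0.24) and IAA1 (-0.85 ± 0.27) were lower. The call of IAA1 did not hold. Without med25-1 library 1, 7 of these genes were called lower, and with the replicate block 5 were, IAA2, IAA14 and IAA29 among them.

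Of 23 sugar starvation genes, 6 (26.1%, beside 21.6% over all tested genes) were called lower and none higher, with a median of -0.38. MCCA, of leucine breakdown, stood at 314, 292 and 267 CPM in wild type, against 166, 189 and 108 CPM in med25-1 (-0.92 ± 0.20, edgeR adjusted p = 0.00851). GDH2, a glutamate dehydrogenase, stood at 165, 139.6 and 137 CPM against 87.5, 69.3 and 69.2 CPM (-0.96 ± 0.23). Both calls held. Those of ASN1, DIN10, DIN11 and TPS6 did not, DIN10 and TPS6 also lost theirs with the replicate block (edgeR adjusted p = 0.0531 and 0.0617), and 3 members were called without wild-type library 2 and 3 without wild-type library 3. Of 29 photosynthesis genes, RBCS3B (-0.70 ± 0.19), SBPASE (-0.68 ± 0.20) and GAPB (-0.71 ± 0.23) were called lower, none with a call that held, and the count was 10 without med25-1 library 2, 1 without wild-type library 1 and 0 without wild-type library 3. The called share of the photosynthesis list was 10.3%. Of 11 tested flavonoid and anthocyanin genes, 4 were called lower and none higher, with 2 lower calls without wild-type library 3 or med25-1 library 1 and 1 without med25-1 library 3. CHS, chalcone synthase, stood at 18.2, 8.45 and 13.9 CPM against 2.27, 3.4 and 2.5 CPM (-2.29 ± 0.31, edgeR adjusted p = 5.6e-04) and held. The calls of CHI, F3H and UGT75C1 did not, CHI also lost its call with the replicate block (edgeR adjusted p = 0.0507), and only 21.6% of the gene reads of F3H were uniquely placed.

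Of 15 flowering genes, 3 were called higher and none lower, all of them relatives of the floral repressor FLC. The called share of the flowering list lay just below the 21.6% over all tested genes. MAF4 stood at 0.0724, 0.0829 and 0.0706 CPM in wild type, 1 read in each library, against 8.47, 5.95 and 9.62 CPM in med25-1 (ratio 100.4, 95% counting interval 34 to 489.6, edgeR adjusted p = 3.0e-06). MAF5 stood at 0.941, 2.49 and 0.847 CPM against 7.92, 5.15 and 8.96 CPM (2.37 ± 0.54, or 3.01 without wild-type library 2). MAF2 (0.58 ± 0.16) lost its call in 3 of the 12 fits, and FLC (-0.32 ± 0.57) was not called. AGL24 (-1.08) was called lower with the replicate block (edgeR adjusted p = 0.0372). Of 21 clock genes, 2 were called higher and 5 lower. PRR9 stood at 4.2, 3.15 and 4.38 CPM against 14.9, 12.4 and 19.5 CPM (1.98 ± 0.24), with 71.1% of its reads uniquely placed, and LNK1 was higher by 0.87 ± 0.22, a call lost without wild-type library 2 and with only the hypoxia libraries in the fit. PRR3 (-1.39 ± 0.22), PRR5 (-1.26 ± 0.25) and FKF1 (-1.44 ± 0.29), clock components of the afternoon and evening, were lower with calls that held. RVE1 and ELF3 were lower with calls that did not. Of 19 light and shade genes, ATHB2 and HYH were called higher and PHYD and PIF3 lower, and only the call of PHYD, a phytochrome (-0.85 ± 0.20), held. Of 16 iron genes, FIT (1.86 ± 0.46) and FER1 (0.78 ± 0.24) were called higher, neither with a call that held, and with the replicate block FRO2 (-1.61) was called lower (edgeR adjusted p = 0.0388). The called share was 21.1% for the light and shade list, near that over all tested genes, and 12.5% for the iron list.

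**Figure D4:**
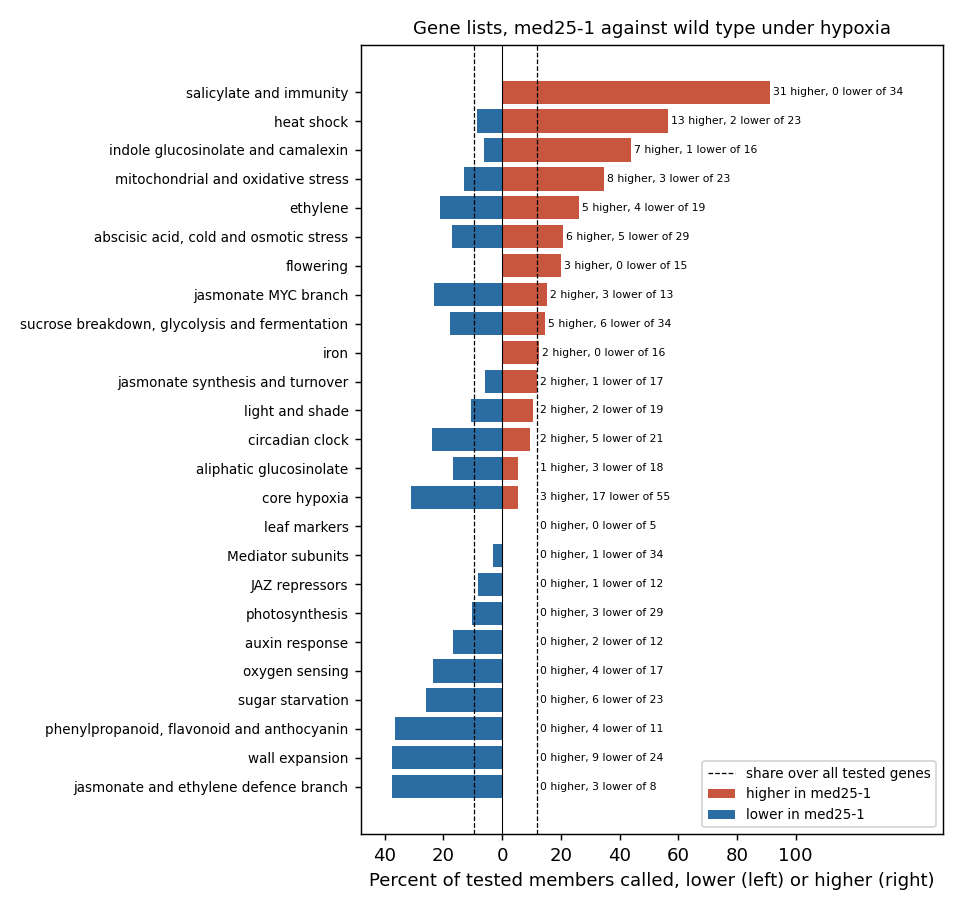
Percent of tested members of each gene list called lower (blue, to the left) or higher (red, to the right) in med25-1 under hypoxia, for lists with at least 5 tested genes, with the counts beside each bar. Dashed lines mark 9.62% lower and 12% higher over all tested genes, and the salicylate list reaches 91.2%.

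The same genotypes were compared under control conditions in 6 other libraries, where 3115 genes (17.1%) were called. Of the genes called under hypoxia, 2086 were called in both conditions, which is 53.0% of the hypoxia calls and 67% of the control calls, and 2085 of them had the same direction. Of the 1847 called under hypoxia alone, 1748 had a log2 fold change of the same sign under control conditions. The log2 fold changes correlated across the 18212 genes with Pearson's r 0.89 and Spearman's rho 0.76, a description across genes that are not independent. The test of the difference, the interaction of genotype and hypoxia, called 0% of genes with edgeR. At an unadjusted p under 0.05, 910 (5%) passed with edgeR, or 524 to 1663 with a library left out. With limma voom 2087 passed at that unadjusted threshold. The smallest adjusted p of edgeR was 0.155 for AT5G41900, limma voom called none after adjustment, and DESeq2 called 16. In 15 of these the interaction was negative, which means that the log2 difference of med25-1 minus wild type was lower under hypoxia than under control conditions.

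By list, 31 salicylate genes were also called higher under control conditions, with a median of 3.49, and 14 wall expansion genes were called lower. PR2 read 1.26, 1.4 and 1.12 CPM in untreated wild type, against 296, 299 and 1207 CPM in untreated med25-1. Core hypoxia genes counted 9 higher and 5 lower under control conditions, with a median of 0.03, beside 3 and 17 under hypoxia. In 11 of the 55 the interaction had an unadjusted p under 0.05, and none passed after adjustment. PDC1 stood at 0 to 0.106 CPM in the wild-type and 0 to 0.289 CPM in the med25-1 control libraries, and PCO2 at 0.159 to 0.446 and 0.173 to 0.272 CPM, so that both lay under 0.5 CPM without hypoxia in either genotype.

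The genes that DESeq2 called for the interaction include KIN1, AT5G41900 and CYP86A2. Without hypoxia, KIN1 read 4.76, 4.64 and 2.18 CPM in wild type, against 0.636, 0.816 and 3.65 CPM in med25-1. Under hypoxia its means were 51 and 2.4 CPM, and the interaction was -3.21 ± 0.78 with DESeq2 (adjusted p = 0.0456) against an edgeR adjusted p of 0.845. AT5G41900 stood at 5.13, 4.64 and 4.15 CPM against 0.925, 1.16 and 0.65 CPM under control conditions, with a DESeq2 interaction of -2.58 ± 0.43 (adjusted p = 3.9e-05). CYP86A2, a cutin synthesis enzyme, had mean levels of 61.6 CPM in wild type and 39.8 CPM in med25-1 under control conditions and of 143 and 24.8 CPM under hypoxia. GDH2 (-1.42 ± 0.34) and ERF2 (-2.06 ± 0.44) were among the 16 as well, and the gene with a positive value was CESA5, a cellulose synthase (0.65 ± 0.16).

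**Figure D5:**
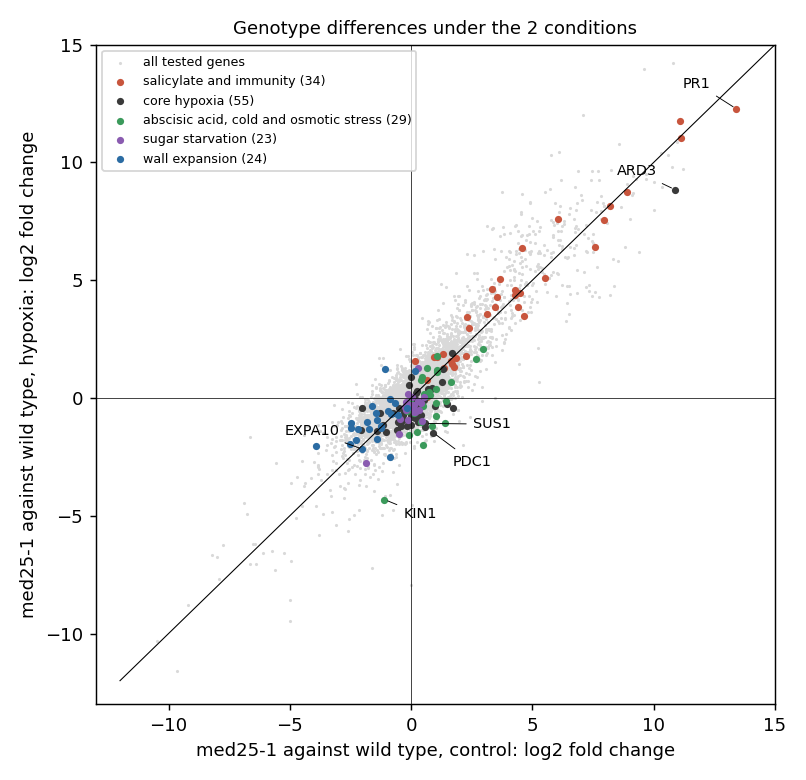
Log2 fold change of med25-1 against wild type under control conditions (x axis) and under hypoxia (y axis) for each tested gene, each from 3 libraries a group; grey points are all genes, coloured points 5 gene lists, and the line marks equal values. Salicylate genes lie near the line at high values in both conditions, while KIN1, PDC1 and SUS1 lie below it.

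The authors' deposited table, from their own test of proportions, put 3274 of the tested genes under an FDR corrected p of 0.05 for the hypoxia comparison. Of these, 2278 were also called here, which is 69.6% of the authors' genes and 57.9% of the calls here. In 2246 of them the authors' deposited table gave a numeric fold change, always in the same direction. PR1 had a signed fold change of 7103 and an FDR corrected p of 0.525 in the authors' deposited table, and KIN1 had -22.5 and 3.6e-07 there. The authors' corrected p was also over 0.05 for PR2 (0.44), DLO1 (0.398), ALD1 (0.379), FMO1 (0.329) and SARD1 (0.12), and it was 0.0276 for DMR6. Of the 12 largest positive changes, only AT1G11280, AT3G05945, AT1G75945 and AT3G27990 were under 0.05 in the authors' test. All of the 12 largest negative changes were.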

How the data were processed

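Poly(A) RNA of rosettes was sequenced with a TruSeq Stranded mRNA kit, as the labels' protocols state. The genome build is TAIR 10 per the submitters' processing notes, while the mapper, the counting tool and its strand setting are not given in the sources here, which makes overlapping and antisense genes uncertain. Per the file headers, the deposited table gives counts of uniquely placed gene reads per library, the main measure here, and of total gene and exon reads. RPKM values that the authors deposited were used for description only. The authors' own test gave a signed fold change as a score and p-values, copied from the authors' deposited table. Of 293 columns, 227 were not used.

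edgeR 4.0.16 (R 4.3.3) was run on the counts of all 12 libraries, with 1 mean per group, filterByExpr, TMM scaling and two-sided quasi-likelihood tests at a Benjamini-Hochberg adjusted p under 0.05. The SE is approximate, derived from the F statistic. CPM used TMM library sizes. Ratios against 1 to 3 reads carry an exact 95% counting interval, and groups without a read have a floor of 3 counts, both of which cover counting error only. On simulated counts the contrast was tested with known changes before use. Alternatives were DESeq2 1.42.0, limma 3.58.1 voom with sample weights, upper-quartile scaling, no filter, only the hypoxia libraries, a replicate block, exon or total reads, a change of at least 2-fold, and leaving out each library. Python 3.11.15 with pandas 2.3.3 and matplotlib 3.10.9 summarised and drew the results. Promoter windows of 250 bases end at the annotated gene start.

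No replicate pair agreed within sampling noise (chi-square over its degrees of freedom 4.13 to 78.7). Same-numbered hypoxia libraries of the genotypes deviated from their group means with correlations of 0.49, 0.11 and 0.21. Wild-type library 2 and med25-1 library 3, of unlike number, had 0.19. Between control and hypoxia, same-numbered libraries had -0.29, -0.12 and -0.10 in wild type and 0.36, -0.31 and 0.05 in med25-1. These values do not settle whether the numbers mark pairs. The main fit has no block, and the replicate block served as an alternative. It ended 8 calls among named genes and list members, of which ERF5 alone is named by the rule, and added 13.

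The comparison, its 28 gene lists and the naming rule were chosen with earlier results of these data known. The lists hold 572 distinct genes, of which 505 were tested. Named were the 12 largest changes in each direction among calls without overlap whose higher group averaged at least 50 counts, 15 fixed genes of hypoxia and MED25, and the 3 calls with the smallest p per list, 102 genes in all. List members outside these, the genes DESeq2 called for the interaction and the W-box were chosen after their values were seen.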

Additional observations from a re-analysis of the deposited data

How the results depend on the processing

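No named gene reversed its direction past the threshold in any of the alternatives run. For the hypoxia comparison the count of 3933 called genes became 1819 with only the hypoxia libraries in the fit and 2098 with a change of at least 2-fold, 3810 with the replicate block (3571 of them shared), and 2214 to 5124 with a library left out. DESeq2 gave 4731, limma voom 4188, upper-quartile scaling 3909, no filter 3858, exon reads 3886 and total reads 3968. The share of higher calls was 55.5%, and 70.1% with only the hypoxia libraries. For the control comparison, 3115 became 1795 with a change of at least 2-fold, 5177 with only the libraries compared, 6774 with limma voom, and 1285 to 5027 with a library left out, the highest without med25-1 hypoxia library 3. For the interaction, 0 became 16 with DESeq2 and stayed 0 with each library left out. Among 102 named genes, 18 lost their call with only the hypoxia libraries, 19 without wild-type library 3, 14 without med25-1 library 3 and 1 with the replicate block. Over all list members the block ended 8 calls and added 13. With only the hypoxia libraries, calls in the lists fell to 2 lower for oxygen sensing, 2 higher and 4 lower for abscisic acid and cold, 5 and 1 for mitochondrial stress, 2 and 2 for ethylene, 1 and 3 for the clock, 2 lower for flavonoids and for sugar starvation, and 0 for photosynthesis. The cause was not tested. The difference in MED25 reads outside exons, 8 percentage points, lay between 6.57 and 8.94 with a hypoxia library left out, alternatives added after the data were seen. Genes with few reads, such as PDF1.2A, ORA59 and the wild-type levels of PR1, are limited by depth to bounds or wide intervals.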

Other observations

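Families of receptors and defence enzymes were picked by their annotated names after the values were seen, and their counts under hypoxia are descriptions. Over all tested genes, 12% were called higher and 9.62% lower. Cysteine-rich receptor-like kinases counted 19 higher and 3 lower of 31 tested, with a median log2 fold change of 1.17. CRK36 stood at 0.579, 0.332 and 0.282 CPM in wild type, against 42.8, 39.4 and 127 CPM in med25-1. CRK42 went the other way, at 17.7, 13.4 and 18.4 CPM against 2.07, 2.39 and 1.71 CPM (-2.97 ± 0.22, edgeR adjusted p = 1.0e-05). Receptor-like proteins, surface receptors without a kinase domain, counted 21 higher and 2 lower of 38, with a median of 1.2. RLP23 stood at 2.24, 3.32 and 2.47 CPM in wild type, against 107, 90.4 and 349 CPM in med25-1. TIR-NBS-LRR proteins, intracellular immune receptors, counted 38 higher and 5 lower of 80, which became 29 and 2 without med25-1 library 3 and 25 and 2 without wild-type library 3, against 45 and 2 without med25-1 library 1. CC-NBS-LRR receptors counted 6 higher and none lower of 19. In AT5G63020, a member of that class, levels were 6.15, 5.8 and 5.36 CPM in wild type and 37.1, 44.5 and 48.8 CPM in med25-1 (2.91 ± 0.15, edgeR adjusted p = 4.4e-07), so that the mutant libraries lay close together.

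WRKY factors counted 17 higher and 2 lower of 49, and 20 and 1 without med25-1 library 1. They counted 14 and 1 without wild-type library 1 or 3, and 14 and none with only the hypoxia libraries in the fit. Their median log2 fold change was 0.37, or 0.13 without med25-1 library 3. Glutathione S-transferases, which detoxify by conjugation, counted 15 higher and none lower of 32, and 12 and 1 without med25-1 library 3. That count was 10 and none without wild-type library 1 or 3. Lectin kinases counted 19 higher and 2 lower of 43, or 11 and 3 without med25-1 library 3, and 12 and 2 without wild-type library 1 or 3. Lipid transfer proteins counted 5 higher and 7 lower of 35, with 11 lower without med25-1 library 1 and 5 lower with only the hypoxia libraries in the fit. Fasciclin-like and arabinogalactan proteins of the wall counted 5 higher and 12 lower of 36, or 2 and 9 without med25-1 library 3, 2 and 10 without wild-type library 2, 2 and 7 without wild-type library 1 or 3, and 1 and 6 with only the hypoxia libraries in the fit. Ribosomal proteins counted 7 higher and 16 lower of 309, a called share of 7.44% beside 21.6% over all tested genes, and 8 higher and 39 lower without med25-1 library 1. They counted 6 and 8 without wild-type library 1, 3 and 15 without wild-type library 2, 4 and 7 without wild-type library 3, 6 and 10 without med25-1 library 3, and 3 and 1 (1.32%) with only the hypoxia libraries in the fit. UDP-glycosyltransferases counted 17 higher and 7 lower of 79 (30.4%), with a median of 0.04, or 14 and 1 with only the hypoxia libraries. Genes grouped under histones by their annotated names counted 4 higher and 3 lower of 45 (15.6%), or 2 and 1 with only the hypoxia libraries. This group was made by name alone and may hold proteins that are not histones.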
